A study of Homo sapiens with 8 samples.

Results

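MB002 is a patient-derived line of Group 3 medulloblastoma (G3-MB). Its H3K27Ac landscape was set against those of D425 and HD-MB03, the other G3-MB lines of this series. The study also drew on published data of the G3-MB lines D283 and D341, which were not used here. Every stitched region of MB002 was given a signal, which is the H3K27Ac value minus the input value, floored at 0 and divided by the median of that quantity over the regions of the line. Among the 500 strongest MB002 regions, those were kept as members that had no overlapping region in D425 and HD-MB03, or only regions at least 4-fold weaker, where 1 shared base pair counted as overlap. This gave 143 members among the 26072 regions of MB002, of which 12 lay on chromosome 14 from 56 to 59 Mb, 3 on chromosome 8 from base 127000000 to 130000000, by their centres, and 128 elsewhere. The members of both spans are described apart from the rest because the MB002 input was high there.

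The study mapped H3K27Ac by ChIP-seq in MB002, D425, HD-MB03 and UW228 to chart super-enhancers. UW228 is labelled as SHH subtype medulloblastoma. Untreated cells of each line gave 1 H3K27Ac and 1 input library, with no replicates, so no spread between replicates was known and every difference below is between single libraries. MB002 and HD-MB03 were grown in Tumor Stem Media with EGF, FGF and LIF, whereas D425 and UW228 were grown in DMEM with FBS, so that the line and the medium cannot be told apart for D425. An exact permutation test of 1 line against 2 could not go below p = 0.333, and no test was run. D425 had 26317 regions, HD-MB03 15286 and UW228 20875, and the depth of the libraries is unknown.

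H3K27Ac is laid down by the acetyltransferases p300 and CBP on nucleosomes flanking active enhancers and promoters. Clusters of such enhancers with a very high load of the mark are called super-enhancers (SEs), and the remaining ones typical enhancers (TEs). SEs often lie near genes of cell identity, and in G3-MB these include *OTX2* and *CRX*, which encode homeodomain factors of the photoreceptor programme, and *MYC*. Copy number also enters such maps, since an amplified segment gives more reads in the H3K27Ac library and in the input library alike.

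Most members were long stitched clusters, but 6 were a single peak, and of these 4 held the TSS of their nearest gene. *GNB3* has several promoters in RefSeq, and the other 3 have 1 each, whose 250 bases before the TSS lay within the member. The promoters of these 3 are shown because they lie within the acetylated peak, of which they are a small part. They belong to *EVX2*, a homeobox gene at the edge of the HOXD cluster (chr2:176083963-176084212, minus strand), *CA14*, a membrane-bound carbonic anhydrase (chr1:150257524-150257773, plus strand), and *HPDL*, a mitochondrial dioxygenase-like enzyme (chr1:45326645-45326894, plus strand). The sequences are the RefSeq promoters on GRCh38.p14, read towards the TSS, with capitals where a searched motif matched.
EVX2: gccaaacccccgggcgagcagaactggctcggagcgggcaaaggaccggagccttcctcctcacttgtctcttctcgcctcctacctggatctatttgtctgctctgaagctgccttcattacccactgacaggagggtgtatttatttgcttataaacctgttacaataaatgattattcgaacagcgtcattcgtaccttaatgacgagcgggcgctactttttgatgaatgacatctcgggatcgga
CA14: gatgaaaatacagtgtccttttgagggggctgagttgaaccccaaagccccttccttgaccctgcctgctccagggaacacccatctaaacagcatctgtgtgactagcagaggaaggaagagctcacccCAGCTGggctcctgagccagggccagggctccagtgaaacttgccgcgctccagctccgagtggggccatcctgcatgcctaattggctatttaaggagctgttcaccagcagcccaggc
HPDL: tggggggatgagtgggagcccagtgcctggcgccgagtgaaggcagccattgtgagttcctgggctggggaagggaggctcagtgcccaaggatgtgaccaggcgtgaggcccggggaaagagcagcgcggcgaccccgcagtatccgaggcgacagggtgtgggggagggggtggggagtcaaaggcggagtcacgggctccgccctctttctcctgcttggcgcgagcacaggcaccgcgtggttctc
The motifs searched on both strands were TAATCC, the core bound by OTX2 and CRX, CACGTG, the E-box of MYC and MAX, CAGCTG, an E-box of proneural factors, and TGACTCA, the AP-1 site. The only match was CAGCTG, which began 120 bases before the *CA14* TSS of RefSeq. The TSS of GENCODE 44 used for the nearest gene of this member lies farther upstream, at 150257251, so that by it the match is inside the gene. Of 35116 RefSeq promoters of this length, 14% held CAGCTG, 5.62% TAATCC, 6.34% CACGTG and 4.20% TGACTCA. The *EVX2* member had a signal of 56.02 in MB002, 7.60 in D425 and no overlapping region in HD-MB03 or UW228. The *CA14* member had 31.8 in MB002 against 0.207 in D425, 0.339 in HD-MB03 and no overlapping region in UW228. The *HPDL* member had 31.1 in MB002 and 0.838 in D425, with no overlapping region in HD-MB03 or UW228.

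The share of regions past the 4-fold limit gives the scale for these counts. Of all MB002 regions, 63.7% were absent or 4-fold weaker in D425, 74.3% in HD-MB03 and 53.3% in both. Among the 500 strongest, the shares were 39.0% for D425, 59.8% for HD-MB03 and 28.6% for both, the last being the 143 members. These shares are what the rule itself counts and nothing is read from them. Overlap of any kind was common at the top of the list. Of the 500 strongest regions, 95.4% overlapped a D425 region and 92.2% a HD-MB03 region, whereas beyond position 10000 the shares were 28.8% and 20.3%. The members therefore mostly had a weaker counterpart in both lines, and only 8 of 143 had no overlapping region in either.

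The limit passed through a continuous range of values. Just inside it were the members near *LECT2*, *IGSF21* and *CLEC16A*, where the stronger of the other lines reached 24.99%, 24.87% and 24.68% of the MB002 signal. Just outside it were, among others, the regions near *NECTIN1* and *SSX2IP*, at 25.4% and 25.5%. The plot of the 500 regions shows no gap at this line.

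Outside both spans, the strongest member lay over the body of *EEF1A1*, which encodes the elongation factor that brings aminoacyl-tRNA to the ribosome. It ran from 73515244 to 73524267 on chromosome 6 and overlapped exons of the gene. Its signal was 586 in MB002 against 2.86 (D425), 26.2 (HD-MB03) and 0.739 (UW228). It was short and dense, with 57.8 rpm/bp over 9.02 kb in MB002, and its relative input density (input per base pair divided by the line's median) was 1.65. HD-MB03 regions covered 84.8% of it and D425 regions 13.3%, so that against HD-MB03 the difference was mostly one of height and against D425 also one of called length. It was also the only one of the 5 strongest members outside both spans to be shorter than 50 kb.

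The others of the 20 strongest members outside both spans are given gene by gene, not by strength. A cluster of 42 peaks over 173 kb (chr1:94847463-95020753) held the TSS of *CNN3*, an actin-binding calponin. Its signal was 187 in MB002 against 9.06 (D425), 7.70 (HD-MB03) and 29.5 (UW228). When overlapping regions of the 3 G3-MB lines were joined, an alternative described below, it had 21.5 in D425 and 18.5 in HD-MB03. The intergenic cluster closest to *SEPTIN9*, a filament-forming GTPase, had 126 in MB002 against 10.1 in D425, 1.39 in HD-MB03 and no overlapping region in UW228 (chr17:77526216-77611970). The *MMP2* member at chr16:55405765-55473169, over exons of this gelatinase gene, had 116 in MB002 against 17.4 (D425), 7.14 (HD-MB03) and 2.51 (UW228). At all 3, D425 stood above HD-MB03, and UW228 was the highest of the other lines only at *CNN3*. The member inside *SSH2*, a cofilin phosphatase, whose nearest TSS is that of the coronin gene *CORO6*, had 89.1 in MB002 against 3.88 (D425), 5.77 (HD-MB03) and 3.41 (UW228). A cluster distal to *PODXL*, the sialomucin podocalyxin, had 82.2 in MB002 against 1.67 in D425, 2.14 in HD-MB03 and no overlapping region in UW228. A further *PODXL* cluster had 42.6, 5.16 and 0.211 in the 3 G3-MB lines in the same order, whereas the *PODXL* region between them, with 48.0 in MB002 and 19.4 in D425, was no member.

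*GALNT14* and *GALNT10* encode enzymes that start mucin-type O-glycosylation. *GALNT14* had a member over its exons (chr2:30979138-31033693) with 116 in MB002, 10.6 in HD-MB03 and no overlapping region in D425 or UW228. The stronger *GALNT10* member, a cluster of 39 peaks over 123 kb that overlapped the neighbouring *MFAP3* (chr5:154057062-154180518), had 82.6 in MB002, no overlapping region in D425 or HD-MB03 and 0.281 in UW228. The weaker one, which overlapped *GALNT10* and *MFAP3*, had 36.6 in MB002, 4.56 in D425 and none in HD-MB03, but 23.3 in UW228. Hence the pair at *GALNT10* differed in UW228 although both were low in D425 and HD-MB03.

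*AUTS2*, a regulator of neurodevelopment, had the member with the most peaks, 56 over 155 kb (chr7:69812749-69967837). Its signal was 104 in MB002 against 11.5 (D425), 6.67 (HD-MB03) and 1.08 (UW228), and a neighbouring *AUTS2* member had 61.8, 5.28, 8.48 and 1.19. With overlapping regions joined, the stronger member had 20.6 in D425 and 9.83 in HD-MB03. *GNB3*, the G protein beta subunit of cone phototransduction, had a member of 1 peak over 16.6 kb that also held the TSSs of *CDCA3* and *USP5* (chr12:6835894-6852470). It had 93.7 in MB002 against 15.7 in D425, 1.29 in HD-MB03 and no overlapping region in UW228. The *ANKK1* member, beside the dopamine receptor gene *DRD2*, had 90.5 in MB002 against 10.3 in D425, 0.379 in HD-MB03 and none in UW228. *PRKCB*, a protein kinase C, had 85.5 in MB002 against 0.576 in D425, 1.97 in HD-MB03 and none in UW228. *NPSR1*, the neuropeptide S receptor, had 81.7 in MB002 against 10.9 (D425), 12.5 (HD-MB03) and 1.33 (UW228). D425 was thus the higher of the other G3-MB lines at *GNB3* and *ANKK1* and HD-MB03 at *PRKCB* and *NPSR1*, while the *AUTS2* members went either way. Other *AUTS2* regions of the 500 were no members, with 35.4 and 32.6 in MB002 and up to 23.2 in HD-MB03.

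Outside both spans, a homeobox gene led the members with no overlapping region in the other lines. The *DMBX1* cluster of 17 peaks (chr1:46441983-46503356) held the TSS of this midbrain homeobox factor and had a signal of 83.1 in MB002, with no overlapping region in D425, HD-MB03 or UW228. In all, 6 members outside both spans had no overlapping region in D425 or HD-MB03, namely those near *DMBX1*, *GALNT10* (the stronger), *EFNB1*, *FAM124B*, *RAG2* and *CHCT1*, of which *FAM124B*, *RAG2* and *CHCT1* were named after their values were seen. Their MB002 signals ran from 83.1 down to 30.9. UW228 had an overlapping region at *GALNT10* (0.281), *EFNB1* (2.37), *FAM124B* (6.03) and *CHCT1* (0.110), and none at *DMBX1* or *RAG2*.

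The remaining of the 20 strongest members outside both spans were nearest to genes of varied function. The cluster nearest to *DAD1*, an oligosaccharyltransferase subunit (chr14:22465871-22573169), covered 56 joining, 1 constant and 1 variable segment of T cell receptor genes in GENCODE 44. It had a signal of 122 in MB002 against 2.51 (D425), 21.2 (HD-MB03) and 6.61 (UW228). The cluster nearest to *PSMD6*, a proteasome subunit, lay over exons of *ATXN7* and had 106 in MB002 against 9.19 (D425), 23.02 (HD-MB03) and 0.723 (UW228). Another region nearest to *PSMD6*, with 31.6 in MB002 and 49.1 in D425, was no member. *SAMD9*, an interferon-responsive antiviral factor, had 104, 10.4, 10.4 and 0.0759 in MB002, D425, HD-MB03 and UW228. At these members of *DAD1*, *PSMD6* and *SAMD9*, the HD-MB03 signal was at or above that of D425. With overlapping regions joined, this held at *DAD1* and *PSMD6*, but *SAMD9* had 18.7 in D425 and 15.1 in HD-MB03. The clusters near *LUZP4*, *NOCT* and *RIOX2* had 82.5, 82.1 and 80.6 in MB002, and the highest value in another G3-MB line was 10.9 in D425, at *RIOX2*. With overlapping regions joined, the highest was 18.1 in D425, at *NOCT*.

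**Figure D1:**
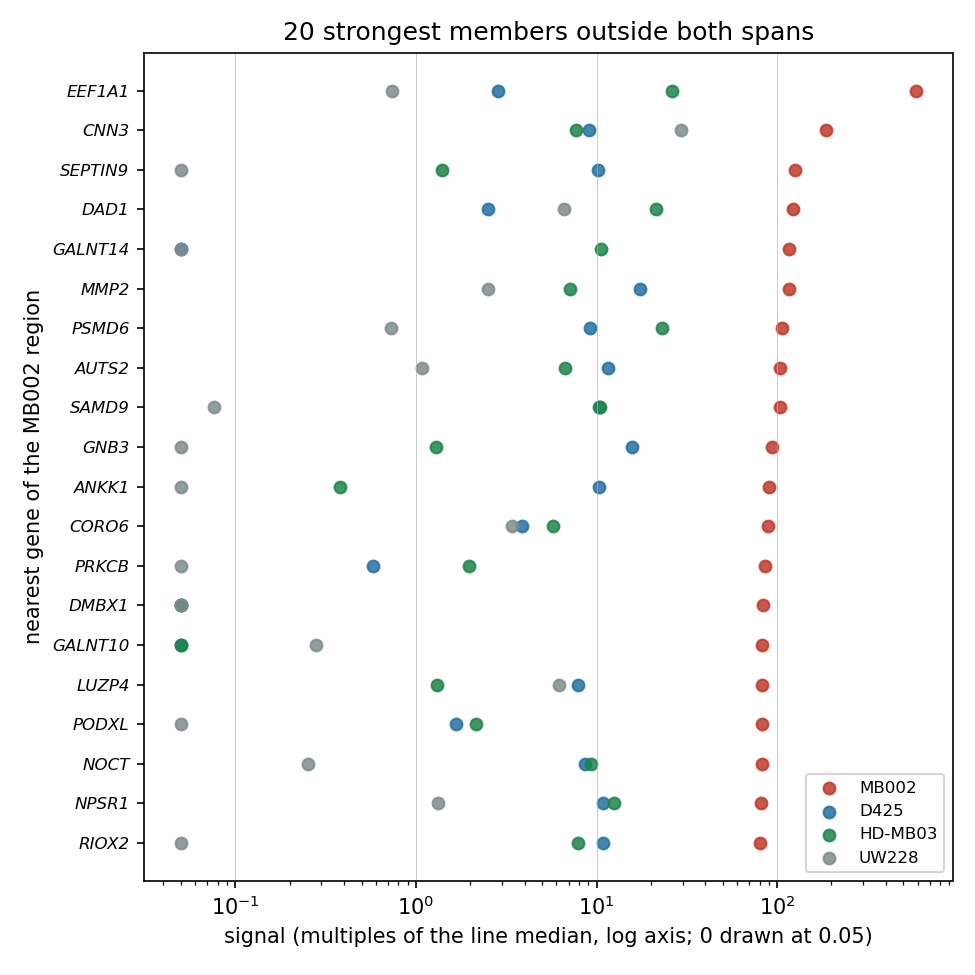
Signal of the 20 strongest members outside both spans in MB002, and of the strongest overlapping region in D425, HD-MB03 and UW228 (x axis, multiples of the line median, log axis, 0 drawn at 0.05), with 1 row per member named by its nearest gene. MB002 lies between 80.6 and 586 and every other G3-MB value at or below 26.2, whereas UW228 reaches 29.5 at *CNN3*.

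The members were also set against fixed gene lists. A gene was counted when it was the nearest protein-coding gene of a member, which held for 131 of 19138 protein-coding genes (0.685%). Of 23 retinal and eye-field transcription factor genes, 2 were counted, *OTX2* and *SIX3*. *OTX2* was counted only through members of the chromosome 14 span, none of which stayed among the 500 after division by input density. The *SIX3* member lay 268 kb from the TSS inside *CAMKMT* with 45.8 in MB002 against 4.93 in D425, 1.53 in HD-MB03 and no overlapping region in UW228. The strongest region near *SIX3* was another one, with 53.3 in MB002 and 41.2 in D425, and was no member. Of 40 photoreceptor genes, 0 were counted, although *CRX*, *PDE6C*, *GUCA1B* and *IMPG2* were nearest to one of the 500 regions. At *CRX* the strongest region had 75.1 in MB002 and 78.1 in D425 against 10.3 in HD-MB03. With 0.685% of all genes counted, a list of this size would mostly hold none, and nothing is read from the 0. *GNB3*, a cone gene with a member, was not in the list, so the 0 also depends on how the list was drawn up. The median gene of the list had a strongest region of 2.81 in MB002 against 1.97 in D425 and 0.865 in HD-MB03.

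Of 34 regulators of the rhombic lip, granule cells and unipolar brush cells, 1 was counted, *EVX2*, with the promoter peak given above. Of 37 proneural and neuronal differentiation factors, 1 was counted, *NEUROD4*, a bHLH factor. Its member had 37.3 in MB002 against 0.402 in D425, 7.53 in HD-MB03 and no overlapping region in UW228. With overlapping regions joined, HD-MB03 had 10.9 there (29.3% of MB002), so that the 4-fold limit was no longer met. Of 60 ion channel and synapse genes, 2 were counted. *KCND3*, a potassium channel of A-type currents, had a pair of members with 67.4 and 39.3 in MB002, at most 1.999 in HD-MB03 and no overlapping region in D425 or UW228. *SYN2*, which encodes the synaptic vesicle protein synapsin II, had 42.9 in MB002, 1.63 in D425 and no overlapping region in HD-MB03 or UW228. Of 49 axon guidance genes, 2 were counted. *EFNB1*, an ephrin ligand, had 55.1 in MB002 and no overlapping region in D425 or HD-MB03. *NRP2*, a semaphorin receptor, had 39.5 in MB002 against 4.82 (D425), 5.52 (HD-MB03) and 26.96 (UW228).

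The counts in the signalling and progenitor lists were too small to be told from the 0.685% of all genes. *TGFBR3*, a TGF-beta co-receptor, was the 1 gene counted of 36 genes of TGF-beta, activin and BMP signalling. Its member had 41.2 in MB002 against 5.86 (D425), 8.08 (HD-MB03) and 0.930 (UW228). With overlapping regions joined, D425 had 10.95 there (26.6% of MB002), so that the 4-fold limit was no longer met. No gene was counted of 48 WNT pathway, 17 Hedgehog pathway and 31 neural progenitor genes. Of the 12 annotated genes of the MYC and MAX network, *MYC* alone was counted, by 2 members in the chromosome 8 span. Of 13 SE-associated genes that the study names, *OTX2*, *MYC*, *AUTS2* and *SSBP3* were counted, but the study chose that list on these samples, so that it is not independent. The *SSBP3* member had 48.5 in MB002 against 11.8 (D425), 7.68 (HD-MB03) and 0.155 (UW228), while another region near *SSBP3* had 103 in MB002 and 63.2 in D425 and was no member.

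Of the markers of other cell types, 0 of 15 glial, 0 of 30 mesenchymal and AP-1, 0 of 13 immune and 0 of 10 endothelial genes were counted. With 0.685% of all genes counted, lists this short would mostly hold none, so these zeros say nothing about the members. The strongest regions near all protein-coding genes summed to 75447.9 in MB002 against 81645.5 (D425), 45550.4 (HD-MB03) and 40837.1 (UW228), which sets the scale between lines for the sums below. The strongest regions near the glial markers summed to 36.7 in MB002 against 46.4 (D425), 35.8 (HD-MB03) and 51.2 (UW228), with *MBP* the strongest of these genes within MB002 and no MB002 region nearest to *GFAP*. For the mesenchymal and AP-1 genes the sums were 211 in MB002 against 362 (D425), 268 (HD-MB03) and 377 (UW228), and *TEAD1* was the strongest of these genes within MB002. No MB002 region was nearest to *FOSL1* or *CCN2*. For the immune markers they were 28.6, 25.4, 12.7 and 33.7 in the same order, with *PTPRC* at 18.3 in MB002 and no MB002 region nearest to *SPI1*. For the endothelial markers they were 62.3, 51.0, 25.6 and 47.3, and *FLT1* was the strongest of these genes within MB002. Among G3-MB markers, the strongest region near *OTX2* had 733 in MB002 and 0 in UW228, *RCVRN* had 13.5 in MB002, and *NRL* had no nearest region in any of the 4 lines.

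UW228 was not used by the rule. However, the rule leaves out regions shared with D425 or HD-MB03, so a lower sharing of the members with UW228 may follow in part from it. Of the 128 members outside both spans, 66 (51.6%) overlapped a UW228 region, against 63.6% of the 352 other regions of the 500 outside both spans and 20.3% of all MB002 regions. The median length was 1585 bp for all MB002 regions and 54.2 kb for these members, so the last share is not a like comparison. The UW228 signal was within 4-fold of that of MB002, or above it, at 6 members (4.69%), against 13.1% of those 352 regions and 14.4% of all MB002 regions. The 6 were near *PPM1H* (27.7 in UW228), *NRP2* (26.96), *GALNT10* (23.3), *PLS3* (20.1), *LEMD1* (11.96) and *HIVEP3* (11.6), of which *PLS3* and *HIVEP3* were named after their values were seen. The UW228 table was made on a later date and from another ROSE settings folder per its header, and the part of these in its values was not tested.

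The signal of a region is its mean density times its length, so a low signal in D425 and HD-MB03 can come with little called length, low density or both. Outside both spans, the median member was 54.2 kb long with 14 peaks, against 39.9 kb and 10 peaks for the 352 other regions. The overlapping regions held a median of 4 peaks in D425 and 3 in HD-MB03 at the members. D425 regions covered a median of 18.1% of the length of a member and HD-MB03 regions 13.7%. That these values are low follows in part from the rule, which asked for a low signal in these lines. MB002 had more peaks than both lines at 111 of the 128 members and at 155 of the 352 other regions. By signal per base pair, each line again divided by its median, the median member had 1.57 in MB002 against 0.822 in D425 and 0.722 in HD-MB03. For D425 and HD-MB03, the density of the strongest overlapping region was taken here. MB002 was the densest of the 3 lines at 96 members (75%) but at least 4-fold denser than both others at 18. It was the densest at 51.8% of the 357 other regions of the 500, whose median density in MB002 was 1.96, above that of the members. Since density is the signal divided by length, the higher share at the members also follows in part from the rule. Another comparison per base pair took the densest overlapping region instead of the strongest. By it, 16 of the 20 strongest members outside both spans no longer met the 4-fold limit. At *CNN3*, *AUTS2*, *CORO6*, *PRKCB* and *NOCT* the densest other G3-MB region was denser than that of MB002. At these 16 the extent of the cluster thus entered their place among the members, beside any difference in density. In the alternative by signal per base pair of the same 500 regions, which took the strongest overlapping region, 5 of the 20 stayed members.

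The centres of the members outside both spans lay farther from a TSS than those of the other regions, while most of both overlapped a gene. The median distance from the centre to the nearest TSS was 50.7 kb, against 28.2 kb, and 35.2% held a TSS, against 45.2%. With a single GENCODE 44 TSS per gene, 45 of the 128 held a TSS and 52 overlapped an exon but no TSS. Of the rest, 6 lay in introns and 25 were intergenic. They were SEs in 96 of 128 cases (75%), near the 70.2% of the other regions. That 0 of them overlapped a SE of D425 or HD-MB03 as the strongest region there follows largely from the 4-fold limit. Their relative input density had a median of 1.10 and a maximum of 2.08, against a median of 1.11 for the other regions, and the part of input or copy number in their membership was not tested. In sequence they were poorer in G and C, with a median of 43.2% against 46.6% for the 357 other regions of the 500 and 44.2% for all MB002 regions. TAATCC, counted on both strands without masking of repeats, occurred 0.784 times per kb in them, 0.920 times in the other regions and 0.878 times in all regions. CAGCTG occurred 0.461, 0.548 and 0.4996 times, CACGTG 0.105, 0.133 and 0.116 times and TGACTCA 0.170, 0.177 and 0.178 times per kb. No motif was more frequent in the members than in the other regions. These are counts of letters and were not set against binding.

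Several members came in runs, defined as at least 3 members with gaps of at most 1 Mb. On chromosome 1 from 204921294 to 205701541, 5 of the 6 regions that belonged to the 500 were members, nearest to *NFASC*, *LEMD1*, *CDK18*, *ELK4* and *SLC45A3*. *NFASC* encodes the cell adhesion molecule neurofascin and *ELK4* an ETS factor of the serum response. The *CDK18* member had 58.9 in MB002 against 6.68 (D425), 4.61 (HD-MB03) and 0.961 (UW228). The *SLC45A3* member had 47.3, 6.13 and 9.22 and the *ELK4* member 45.5, 3.32 and no overlapping region in MB002, D425 and HD-MB03. The *LEMD1* member had 38.8, 0.764 and 2.88, and the *NFASC* member 32.1, 6.71 and 7.61. Over the whole run the signal summed to 428 in MB002 against 132 (D425), 56.5 (HD-MB03) and 54.9 (UW228). The called length was 279, 82.9, 88.6 and 107 kb, and the mean was 1.37, 1.14, 0.539 and 0.870 rpm/bp. So against D425 most of the difference in sum went with called length. The median relative input density over the run was 1.48 in MB002, near the 1.45 of all chromosome 1 regions of the line.

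**Figure D2:**
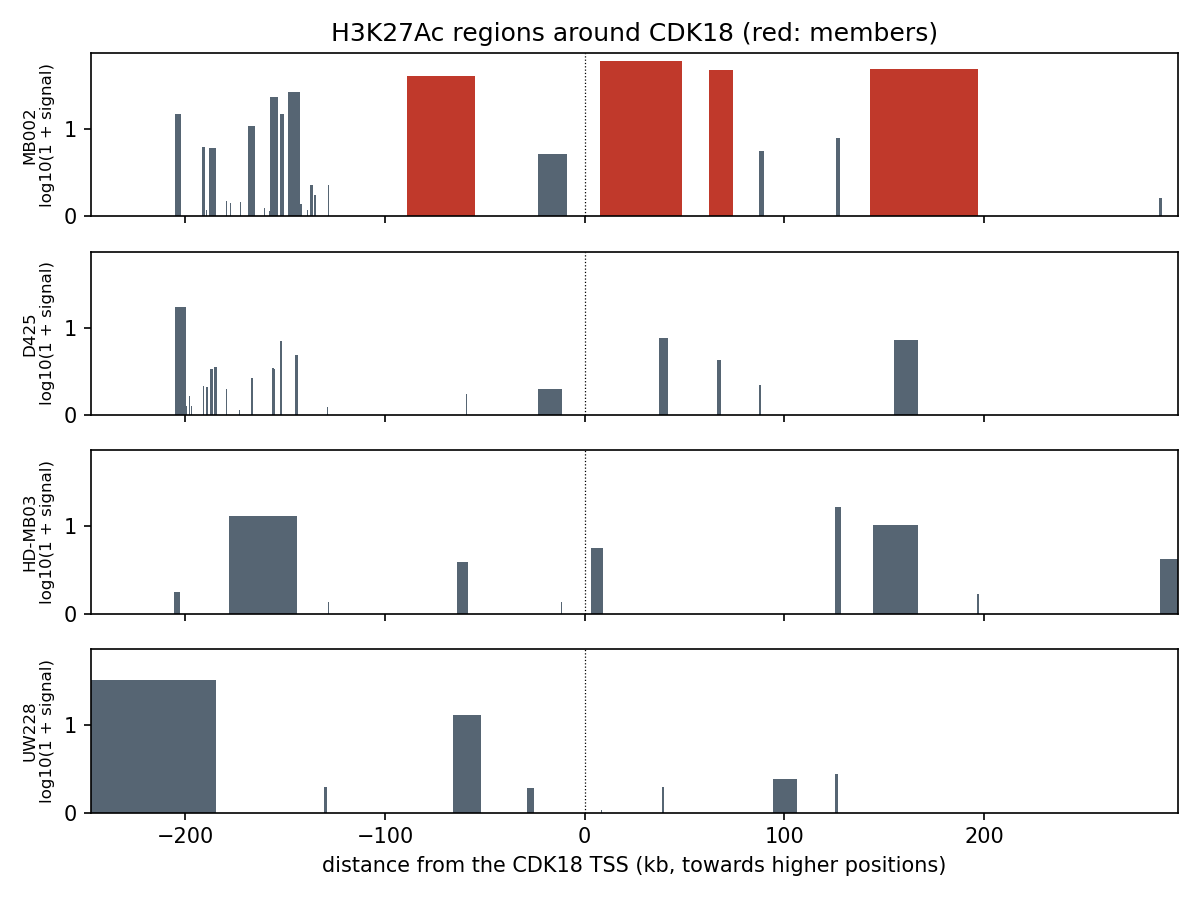
H3K27Ac regions around *CDK18* in the 4 lines (x axis, kb from the TSS towards higher positions, y axis, log10 of 1 + signal), with members in red. The 4 members shown, with 38.8, 58.9, 45.5 and 47.3 in MB002, face narrower and lower regions, or none, in D425 and HD-MB03, while UW228 has 11.96 opposite the leftmost.

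On chromosome 12 from 62581567 to 62746731, all 3 regions of MB002 were members, with 30.9 and 47.3 nearest to *MON2*, an endosomal trafficking gene, and 68.5 nearest to *PPM1H*, a protein phosphatase. The signal summed to 147 in MB002 against 18.6 (D425), 10.2 (HD-MB03) and 31.2 (UW228), over 122, 31.7, 40.5 and 65.9 kb, with means of 1.07, 0.419, 0.212 and 0.801 rpm/bp. Here MB002 was higher than D425 and HD-MB03 in length and in density. On chromosome 3 from 63529796 to 64626117, the members nearest to *SNTN*, inside the synaptic vesicle gene *SYNPR*, to *PSMD6* and to the metalloprotease gene *ADAMTS9* had 54.8, 106 and 62.9 in MB002. The sums there were 350 in MB002 against 111 in D425 and 55.95 in HD-MB03, over 435, 157 and 126 kb, with 0.716, 0.506 and 0.375 rpm/bp. With overlapping regions joined, D425 had 18.8 at *ADAMTS9* (29.8% of MB002). This no longer met the 4-fold limit and would leave fewer than the 3 members of a run. On chromosome 17 from 75890094 to 77611970, the members near *MRPL38*, *MXRA7* and *SEPTIN9* had 40.0, 36.3 and 126 in MB002. The sums there were 357, 98.8 and 122 over 284, 162 and 268 kb, with 1.12, 0.437 and 0.385 rpm/bp, and the median relative input density was 1.502 in MB002 and 1.918 in D425.

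Members made up 26.7% of the 480 regions of the 500 outside both spans. By chromosome they were 27 of 99 on chromosome 1, near that share, 10 of 27 on chromosome 2, 10 of 30 on chromosome 3, 11 of 23 on chromosome 12, 6 of 15 on the X chromosome and 10 of 45 on chromosome 17. Chromosomes 18, 19, 21 and 22 held 0 members and at most 6 of the 500 regions each. The median relative input density of MB002 was 1.45 on chromosome 1 and 1.40 on chromosome 17, and that of HD-MB03 on the X chromosome was 0.446. The part of these in the counts was not tested.

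On chromosome 14 from 56 to 59 Mb, 12 members formed a row from *OTX2* to *ACTR10*. The strongest of all members held the TSS of *SLC35F4*, a solute carrier gene (chr14:57958770-57997836), with 1367 in MB002 against 7.14 in D425, 0.862 in HD-MB03 and no overlapping region in UW228. The intergenic member next to *OTX2* on its downstream side (chr14:56726545-56780048) had 487 in MB002 against 21.2 in D425, 68.9 in HD-MB03 and none in UW228. The member at *ACTR10*, a dynactin subunit, had 477, 0.968, 3.99 and 0.168 in MB002, D425, HD-MB03 and UW228. A further intergenic member nearest to *OTX2* had 426 in MB002, no overlapping region in D425 and 0.637 in HD-MB03. The member nearest to *CCDC198*, over exons of *SLC35F4*, had 400, 2.17 and 3.15 in MB002, D425 and HD-MB03. All 5 were at least 7-fold above both lines, and UW228 reached at most 0.168 there. The other 7 had 49.97 to 384 in MB002, and 2 of them, near *SLC35F4*, had no overlapping region in D425 or HD-MB03.

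The region over *OTX2* itself was no member, with 733 in MB002 against 354 in D425 and 208 in HD-MB03, and neither was a region of 209 in MB002 and 128 in D425 farther upstream. Over the span the signal summed to 5277 in MB002 against 569 (D425), 628 (HD-MB03) and 29.2 (UW228). The called length was 664, 123, 326 and 110 kb, and the mean 7.08, 3.33, 1.63 and 0.447 rpm/bp. This was 4.95% of the signal of all MB002 regions. The input moved with it, as the median relative input density of the regions was 30.2 in MB002 against 1.21 (D425), 4.49 (HD-MB03) and 0.760 (UW228), and between 20.9 and 50.5 at the 12 members. In D425 it was high only around *OTX2*, with a maximum of 64.5, and over *OTX2* itself it was 53.3 in D425, above the 35.2 of MB002. When each signal was divided by its relative input density, 8 of the 12 still met the 4-fold limit, but only 1, at the *SLC35F4* TSS, remained among the 500 strongest, at position 451. Its value was then 25.7 in MB002 against 4.20 in D425 and 0.193 in HD-MB03. Outside the span, at 59176292 to 59204847, the row went on with a member over the TSS of *DAAM1*, a formin, with 36.9 in MB002 against 1.49 in D425 and 0.557 in HD-MB03 and a relative input density of 1.15.

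**Figure D3:**
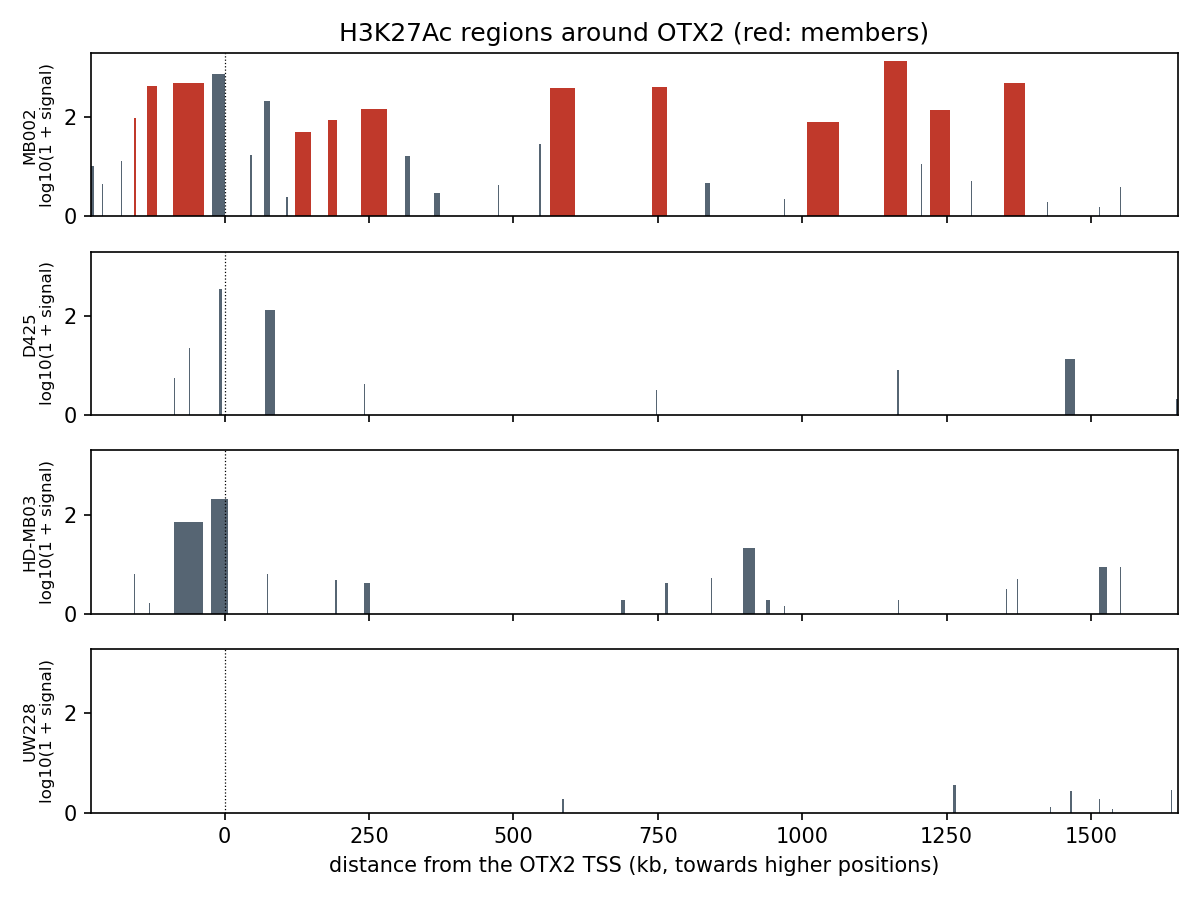
H3K27Ac regions around *OTX2* in the 4 lines (x axis, kb from the TSS towards higher positions, y axis, log10 of 1 + signal), with members in red. The 12 members of MB002 lie on both sides of the *OTX2* region, with the highest, 1367, more than 1142 kb away, where D425 and HD-MB03 have 7.14 and 0.862.

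In the span on chromosome 8, the 3 members lay between the *POU5F1B* gene, in which the first lies, and *MYC*. The strongest, the intergenic one closest to *MYC* (127619244 to 127648227, with its centre 102 kb from the TSS), had 512 in MB002 against 112 in D425, 40.8 in HD-MB03 and no overlapping region in UW228. It was the only member that overlapped a SE of D425 as the strongest region there. The member inside *POU5F1B* (127395702 to 127406870) had 68.9 in MB002, 9.42 in D425 and no overlapping region in HD-MB03 or UW228. The weakest (127566795 to 127584761) had 42.6 in MB002, while the overlapping regions of D425 and HD-MB03 were at 0 after input was subtracted. The span as a whole was not higher in MB002 than in D425, with sums of 2516 in MB002 against 2585 (D425), 593 (HD-MB03) and 151 (UW228) over 316, 157, 152 and 349 kb, and means of 7.09, 11.8, 3.30 and 0.729 rpm/bp. The strongest MB002 region there, with 1064, had 1318 in D425 and 524 in HD-MB03. The region over *MYC* had 383 in MB002 against 259 in D425 and 4.30 in HD-MB03. The relative input density at the 3 members was 31.5 to 43.5 in MB002, and the highest of any region of the span was 46.5 in MB002 against 136 in D425 and 154 in HD-MB03. After division by it, 3 of the 3 members still met the 4-fold limit and 0 remained among the 500 strongest.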

How the data were processed

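For each of the 4 lines, 1 H3K27Ac and 1 input library were available. The deposited signal of a region, given apart for H3K27Ac and for input, is in rpm/bp (mapped reads scaled to library size, per base pair) times its length, with no subtraction by the authors. The deposited score columns hold the ROSE rank, where 1 is the strongest, and the SE call, and a deposited count gives the peaks stitched into each region. Per the submitters' processing notes, the authors used Bowtie2 2.3.0, SAMtools 1.9 and MACS2 2.2.6 on GRCh38. Duplicates and multi-mapping reads were removed with sambamba, and peaks were stitched with ROSE, leaving out promoters per the methods, although many stitched regions still span a TSS.

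Signal was computed as defined in the report, and the order of regions by H3K27Ac minus input was checked to be that of the deposited ranks. Where several regions overlapped, the strongest was used. The nearest gene was the protein-coding gene of GENCODE 44 and RefSeq whose TSS was closest to the centre of the region. The members and gene lists were chosen with earlier results of these data known. Named genes were those nearest to the 20 strongest members outside both spans, to up to 5 in each span, to up to 3 on either side of the limit, to members nearest to a listed gene and to members in runs. The code of the rule was checked on simulated data, where 60 of 60 planted regions were recovered with 0 others. The simulated lines were slightly shifted copies of MB002 regions, with the planted ones removed or weakened well past the limit. The check therefore says nothing about regions near the limit or stitched differently between lines. Values were computed with Python 3.11.15, numpy 2.4.6 and pandas 2.3.3 and drawn with matplotlib 3.10.9. The alternatives were other treatments of input, scaling, overlap, fold limit, number of regions and gene assignment. The RNA-seq data and a single gene of the study were not analysed here.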

Additional observations from a re-analysis of the deposited data

How the results depend on the processing

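With 1 library per line, the limits are those of single libraries of unknown depth. The signal of a region also depends on which peaks were stitched into it, and the size of that part was not tested. No paired analysis was possible because each line had 1 library of each kind and no test was run. The 143 members became 117 to 165 under the other input and scaling treatments, 123 with overlapping regions summed and 148 with a stricter overlap by share of length. Of the 143, 115 stayed members with no input subtraction, 105 with division by relative input density, 143 with no division by the median and 115 with division by the summed signal. With regions of the 3 lines joined where they overlapped, an alternative chosen after seeing the data, there were 120 members, 118 of them among the 143. The 20 strongest members outside both spans all stayed. At 20 of the 143 another G3-MB line then stood above 25% of MB002. Among these were *NEUROD4*, *TGFBR3*, *ADAMTS9*, *ICE2*, *LECT2*, *IGSF21* and *CLEC16A*.

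Division by relative input density left 1 member in the chromosome 14 span and 0 in the chromosome 8 span. Mean signal per base pair gave 20 members in the chromosome 14 span and 30 that overlapped UW228, and just 12 of the 143 were among its 130 members. The densest overlapping region of the other G3-MB lines then stood at 104% of MB002 for *CNN3*, 111% for *AUTS2*, 287% for *CORO6*, 130% for *PRKCB* and 181% for *NOCT*. Per base pair of the same 500 regions, also chosen after seeing the data, there were 32 members, 22 outside both spans, with *AUTS2* at 111%, *CORO6* at 154% and *PRKCB* at 130%. The 2-fold limit gave 256 members, 240 outside both spans and 136 overlapping UW228, and the 8-fold limit 83, 71 and 41 with 1 in the chromosome 8 span. With no overlapping region at all there were 8, of which 2 in the chromosome 14 span, 0 in the chromosome 8 span, 6 outside and 4 overlapping UW228. The 250 strongest regions gave 84, 70 outside and 38 overlapping UW228, the 1000 strongest 268, 252 and 119, and the 500 strongest among those that pass 500, 481 and 209. These last counts follow from the number of regions taken. With all genes that have a RefSeq symbol, 71 of the 143 nearest genes were kept. The cause of the other shifts was not tested.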

Other observations

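Some members also lay over genes other than the nearest one. The genes in these paragraphs were chosen after their values were seen, except *RIOX2*. The member nearest to *RIOX2* held its TSS and overlapped *CRYBG3* and *GABRR3*. It had 80.6 in MB002 against 10.9 in D425, 7.91 in HD-MB03 and no overlapping region in UW228. The member nearest to *UBE2J1* held the TSSs of *UBE2J1* and *GABRR2* and overlapped *RRAGD*. It had 66.5, 11.4, 1.54 and 6.66 in MB002, D425, HD-MB03 and UW228. *GABRR3* and *GABRR2* encode rho subunits of GABA receptors, which are known from retinal bipolar cells. The *UNC119* member, over the TSS of a lipid-binding trafficking factor of photoreceptors, had 56.3 in MB002 against 1.14 in D425, 10.1 in HD-MB03 and no overlapping region in UW228. These genes were in no list, and no list was made from them.

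A pair of members lay in *RORA*, a nuclear receptor gene of cerebellar Purkinje cells. The member over its TSS had 68.6 in MB002 against 0.309 in D425, 5.65 in HD-MB03 and no overlapping region in UW228. The other, nearest to *ICE2*, had 58.4, 11.2 and 5.32 in MB002, D425 and HD-MB03. With overlapping regions joined, D425 had 17.7 at the *ICE2* member (30.4% of MB002), so that the 4-fold limit was no longer met. Further members held the TSSs of *GRIK3*, a kainate receptor subunit (62.1, 4.67 and 1.44), *SRRM4*, a splicing regulator of neuronal microexons (74.0, 17.1 and 14.7), *LGI1*, a secreted synaptic protein (44.3, 5.73 and 5.11), and *HEY1*, a Notch target (39.6, 1.76 and 0.814), each given for MB002, D425 and HD-MB03 in this order. The *FGF2* member had 60.4 in MB002 against 5.09 (D425), 4.67 (HD-MB03) and 10.2 (UW228). MB002 and HD-MB03 were grown with FGF, and the part of the medium was not tested.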
